A study of Mus musculus with 20 samples.

Results

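The genes described here encode the core proteins of the spliceosome and the SR proteins of the mouse. They were chosen by name alone, as the protein-coding rows of the expression table whose gene symbol begins with Srsf, Snrp, Sf3a, Sf3b, Lsm or Prpf. This gave 60 of the 25869 gene identifiers, of which 11 were SR genes (Srsf), 12 Sm and other snRNP genes (Snrp), 9 SF3 genes (Sf3a and Sf3b), 15 LSM genes (Lsm) and 13 PRPF genes (Prpf). For 58 genes the label fits what is known of the protein, while Lsmem1 and Lsmem2 carry the prefix but encode membrane proteins with no known role in splicing.

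The spliceosome removes introns from pre-mRNA. It is built stepwise from small nuclear ribonucleoprotein particles (snRNPs), each an RNA with a ring of Sm or LSM proteins and particle-specific proteins, and it recognises the splice sites and the branch point before its PRPF proteins help to drive the rearrangements that lead to catalysis. SR proteins bind exons through an RNA recognition motif and recruit the snRNPs through a domain rich in arginine and serine, and the genes of SR proteins and of Sm assembly factors are known targets of MYC in lymphoma.

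RNA-seq had been performed on 20 libraries. All of the lymphoma, tumour, sgBcl-2, sgNT and no sgRNA samples carried dCas9a-SAM, a nuclease-dead Cas9 linked to VP64 and expressed together with an MS2-p65-HSF1 activator from the Rosa26 locus under the CAG promoter (dCas9a-SAM KI/+). The 6 lymphoma lines, 4 IgM-positive and 2 IgM-negative, were grown from tumours of lethally irradiated mice that had been reconstituted with Eµ-Myc/dCas9a-SAM KI/+ foetal liver cells carrying an sgRNA against the Bcl-2 promoter, and the 2 primary tumours were IgM-positive and of the same genotype. In Eµ-Myc mice, an immunoglobulin heavy chain enhancer drives Myc in B lineage cells, so that the lymphomas carry a Myc transgene active in their lineage, while the mouse embryonic fibroblasts (MEFs) have their own Myc. The MEFs comprised 2 libraries without an sgRNA, 2 with the non-targeting sgNT, 4 with sgBcl-2 and 2 from WT embryos. The titles place the libraries with no sgRNA, sgNT or sgBcl-2 in 2 MEF lines, so that the 4 sgBcl-2 libraries are 2 from each of these lines and not 4 lines. The 2 preB-ALL libraries came from leukaemias labelled BCR-ABL1 (p190T/+), with CreERLSLErg named in the title of the first and RagCreErg in that of the second, and no activator. Libraries are numbered within their group. The labels give each lymphoma line a mouse number of its own and mark separate lines within the other MEF groups. They do not say whether sgBcl-2 libraries of the same MEF line were separate cultures, so for these the spread may be partly technical.

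Between 12474885 and 26678417 reads were recovered per library, with the 2 preB-ALL libraries the shallowest. Bcl2, the targeted gene, lay at 99.4 to 165 CPM in the lymphoma lines, 235 and 244 CPM in the tumours, 46.8 to 71.8 CPM in sgBcl-2 MEFs and 11.2 to 17.9 CPM in all other MEFs. The 9 B cell markers summed to 1153 CPM or more in every lymphoma, tumour and preB-ALL library and to 25.2 CPM or less in every MEF library. WT MEF 2 stood apart from the other MEFs, since its 12 fibroblast markers summed to 3502 CPM against 11418 to 19000 CPM in the other 9 MEF libraries, and its 8 myeloid markers to 230 CPM against at most 14.1 CPM. The preB-ALL libraries also stood apart. They held 1769 and 3907 CPM of the fibroblast markers, with 10 of 12 above 1 CPM, whereas no lymphoma line or tumour held more than 51.0 CPM. Every mitochondrially encoded gene was listed at 0 in both preB-ALL libraries. In such bulk samples, fewer cells of a type and less RNA per cell cannot be told apart.

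Reads of the 60 genes made up between 1.22% and 1.29% of all reads in the 6 lymphoma lines, 1.12% and 1.09% in the tumours, 1.12% and 1.02% in preB-ALL, and 0.36% to 0.51% in the 10 MEF libraries. Each of the 5 families was higher in every lymphoma, tumour and preB-ALL library than in any MEF library. The summed level of the SR genes lay between 4559 and 5110 CPM in the lymphoma lines, at 4282 and 4294 CPM in the tumours, at 3779 and 3831 CPM for preB-ALL and between 1045 and 1623 CPM in the MEFs, so that the 3 lymphoid groups did not overlap. For the Sm and snRNP genes the ranges of the lymphoma lines (1452 to 1909 CPM) and preB-ALL (1420 and 1511 CPM) did overlap, and for the SF3 genes preB-ALL (2741 and 2356 CPM) overlapped the lymphoma lines (2471 to 2761 CPM) likewise. The SF3 sums of preB-ALL also lay above those of the tumours (2171 and 2311 CPM). All these sums are deposited CPM on unlike totals. Mitochondrially encoded genes took 7.80% and 9.04% of the tumour totals and 0% of those of preB-ALL, which raises preB-ALL sums relative to the tumours. The part of this in the order of the SF3 sums was not tested. Myc lay at 1148 to 2602 CPM in the lymphoma lines, 1214 and 1230 CPM in the tumours, 473 and 221 CPM in preB-ALL and 50.2 to 139 CPM in the MEFs. Like the SR and LSM sums it was lower in preB-ALL than in the lines and tumours and lowest in the MEFs. This order did not hold for the SF3, PRPF or Sm and snRNP sums. The PRPF genes summed to 2371 CPM in preB-ALL 1, against 2176 and 2056 CPM in the tumours. Unlike the SR sums, Myc overlapped between lines and tumours. Its part in the levels was not tested.

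**Figure D1:**
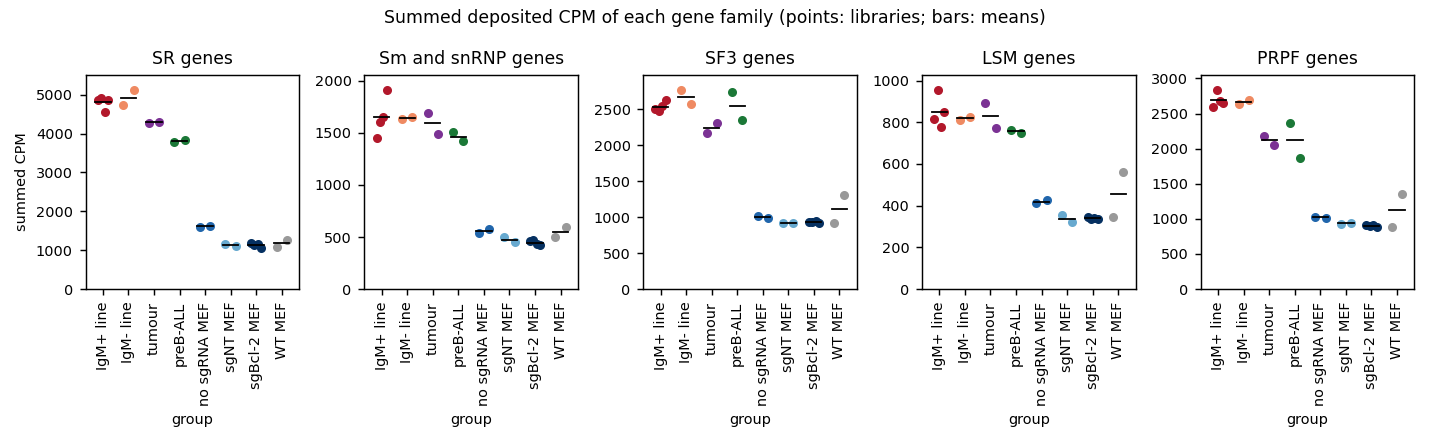
Summed deposited CPM (y axis, linear from 0) of the 5 gene families in each of the 8 groups, with a point for every library and a bar at the group mean. SR genes run from 4559 to 5110 CPM in the 6 lymphoma lines and do not exceed 1623 CPM in any MEF library.

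Levels can be compared between genes only per length, which was known for 59 genes. Over the lymphoma lines, Srsf2 (SC35, chr11:116849897-116853675) had the highest level at 493 CPM per kb of transcript, followed by Snrpb (the SmB protein of the Sm ring, chr2:130171636-130179382) at 379 and Srsf7 (9G8, an SR protein with a zinc knuckle, chr17:80200080-80207369) at 378, level with Srsf5. The 3 lowest were Lsmem1 at 1.18 CPM per kb, Srsf12 at 0.0065 and Snrpn, listed at 0. The 7 genes of the Sm ring, whose products form the ring together, ranged from 110 CPM per kb for Snrpf to 379 for Snrpb, and the 7 genes of the LSM ring on U6 snRNA from 9.30 for Lsm5 to 172 for Lsm4. Sm and LSM genes have many processed pseudogenes, and reads that fit several copies may have been lost or assigned elsewhere, so that the order within each ring is uncertain. Snrpn (chr7:59982495-60450177), an imprinted paralogue of Snrpb, was listed at 0 in all 20 libraries, as was Snurf, which overlaps it in the annotation. How reads in overlapping genes were counted is not given in the sources used here, so this 0 may not measure expression.

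The lymphoma lines themselves differed by more than read counting. For the 58 genes with a mean of at least 1 CPM, the coefficient of variation over the 6 lines had a median of 13.7%, against a median of 1.83% that read counting alone would give. It was under 10% for 20 genes and over 20% for 10. Srsf3, Srsf2 and Srsf1 were among the least variable, with coefficients of variation of 4.52%, 5.94% and 6.31%. At the other end, Snrpd1, a further Sm ring gene, lay between 114 and 242 CPM (32.4%), with the highest value in IgM-positive line 4. Srsf9 lay between 94.6 and 181 CPM (27.2%), with the highest value in IgM-positive line 2. Lsmem1 varied most, from 0.19 to 2.89 CPM.

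**Figure D2:**
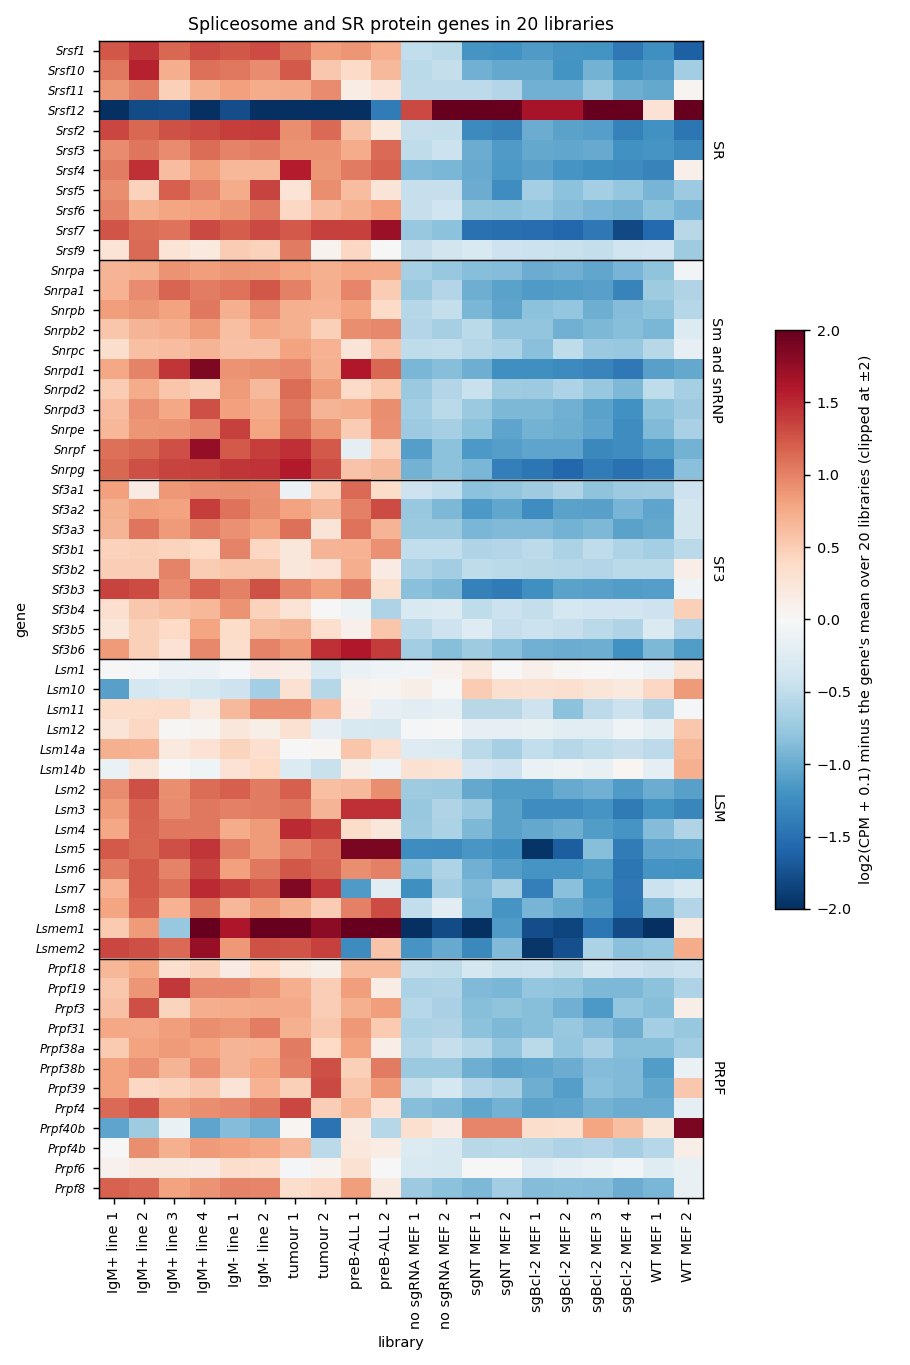
Each row is a gene (58 genes shown), grouped by family, and each column a library. Colour gives log2(CPM + 0.1) minus the mean of that gene over the 20 libraries, clipped at 2 in either direction, and shows most rows high in the 10 lymphoid libraries and low in the MEFs, with Srsf12, Prpf40b and Lsm10 low in the 6 lymphoma lines. Lsm10 and Prpf40b are not low in every tumour and preB-ALL library, with Lsm10 at 16.3 CPM in tumour 1.

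Lymphoma lines and sgBcl-2 MEFs share the activator and guides against Bcl2, and differ in cell type, the Myc transgene and culture, which cannot be told apart here. Whether the same guide was used in both is not given in the sources used here. Of the 59 members that passed the filter on low values, 52 were higher and 3 lower in the lymphoma lines (limma, Benjamini-Hochberg adjusted p under 0.05 over 14620 genes). Of all genes tested, 81.3% were called, 36.3% higher and 45% lower. Lsmem1 and Lsmem2, at 0.051 and 0.22 CPM on average in the MEFs, passed the filter only through the lymphoma lines. Srsf12, at 0.019 CPM on average in the lines, passed it only through the MEFs. The directions of these genes were thus set by the filter, though they are in the counts given here. The median log2 fold change of the members was 1.57, against -0.27 for all genes. After scaling, the 6 lymphoma lines and 4 MEF libraries did not overlap for 52 members on the higher side and 3 on the lower, which held for 32.9% and 41.9% of all genes. Scaling to a common composition shifted every log2 difference here by -0.18.

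All SR genes except Srsf12 were higher in the lymphoma lines. Srsf1 (chr11:88046499-88053757), the founding member of the family, lay at 166, 161, 158 and 135 CPM in the sgBcl-2 MEFs and at 810 to 977 CPM (median 879) in the lymphoma lines. Its lowest lymphoma line was thus far above its highest MEF, with a log2 fold change of 2.33 ± 0.07 (SE, limma, adjusted p = 1.69e-10). Srsf7 had the largest increase of the family, a log2 fold change of 2.62 ± 0.09 (SE), at 56.6 ± 6.04 CPM (SD, n = 4) in the MEFs against 394 ± 27.3 CPM (SD, n = 6) in the lines. Srsf9 had the smallest increase among the SR genes, with a log2 fold change of 0.74 ± 0.15 (SE).

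All 11 Sm and snRNP genes tested were higher in the lymphoma lines, with log2 fold changes from 1.10 for Snrpc, a U1 protein, to 2.64 for Snrpg, the G protein of the Sm ring (chr6:86371540-86378902). Snrpg lay at 10.7, 9.79, 11.1 and 10.3 CPM in the MEFs and at 65.3 to 80.1 CPM (median 75.5) in the lines, a log2 fold change of 2.64 ± 0.09 (SE, limma, adjusted p = 5.93e-10). The groups did not overlap.

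All 9 SF3 genes, whose products bind the branch point as part of the U2 snRNP, were higher as well, from 0.80 for Sf3b4 to 2.12 for Sf3b3 on the log2 scale. Sf3b3 (chr8:110810491-110846806) lay at 107, 120, 118 and 116 CPM in the MEFs and at 482 to 637 CPM (median 588) in the lines (log2 fold change 2.12 ± 0.08, SE, limma, adjusted p = 1.65e-09). Sf3b1, the SF3b subunit most often mutated in blood cancers, had a smaller difference, at 295 ± 13.3 CPM (SD, n = 4) in the MEFs and 640 ± 113 CPM (SD, n = 6) in the lines, with a log2 fold change of 0.92 ± 0.13 (SE).

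In the LSM family, the 7 genes of the ring on U6, Lsm2 to Lsm8, were all higher in the lines, with log2 fold changes between 1.83 and 2.47. Lsm3 (chr6:91516035-91522620) lay at 13.4, 13.4, 14.0 and 11.8 CPM in the MEFs and at 57.1 to 72.2 CPM (median 64.2) in the lines (log2 fold change 2.10 ± 0.08, SE, limma, adjusted p = 1.24e-09). Lsm1, which takes the place of Lsm8 in the cytoplasmic ring that acts in mRNA decay, was at 17.8 ± 0.67 CPM (SD, n = 4) in the MEFs and 17.3 ± 1.27 CPM (SD, n = 6) in the lines and did not pass the test (limma, adjusted p = 0.058). It was called lower in the lines with pseudocounts of 0.5 and 1, RLE scaling, DESeq2 and without IgM-negative line 2. The 2 LSM proteins of the U7 snRNP, which processes histone pre-mRNA, went opposite ways. Lsm11 was higher in the lines, with a log2 fold change of 0.85 ± 0.16 (SE), while Lsm10 (chr4:126096562-126098584) lay at 16.3, 16.6, 15.7 and 15.3 CPM in the MEFs and at 6.16 to 11.0 CPM (median 10.2) in the lines, a log2 fold change of -0.97 ± 0.17 (SE, limma, adjusted p = 0.00039). The difference between these 2 fold changes was not tested. Lsmem1 and Lsmem2, which share only the prefix, were higher in the lines as well, by 2.84 ± 0.60 and 2.43 ± 0.29 (SE) on the log2 scale, at no more than 2.89 CPM in any lymphoma line.

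Among the PRPF genes, 11 of 13 were higher in the lines. Prpf38b (chr3:108902805-108911729), a relative of the B complex protein encoded by Prpf38a, lay at 59.3, 61.0, 66.4 and 65.9 CPM in the MEFs and at 195 to 229 CPM (median 212) in the lines (log2 fold change 1.57 ± 0.06, SE, limma, adjusted p = 1.72e-09). Prpf8, the large U5 protein at the centre of the spliceosome, was at 233 ± 9.86 CPM (SD, n = 4) in the MEFs and 868 ± 85.1 CPM (SD, n = 6) in the lines. Prpf6, which bridges the particles of the tri-snRNP, was at 77.6 ± 4.75 CPM in the MEFs (SD, n = 4) and 101 ± 7.12 CPM in the lines (SD, n = 6), with a log2 fold change of 0.20 ± 0.08 (SE) after scaling that did not pass the test (limma, adjusted p = 0.051). It was called higher unscaled and without IgM-positive line 1, IgM-positive line 2 or sgBcl-2 MEF 4.

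The 2 further members that were lower in the lymphoma lines were Prpf40b and Srsf12. Prpf40b (chr15:99295076-99317018) lay at 17.6, 17.3, 24.0 and 21.1 CPM in the MEFs and at 6.57 to 12.6 CPM (median 7.28) in the lines, a log2 fold change of -1.49 ± 0.21 (SE, limma, adjusted p = 5.35e-05). Srsf12 (chr4:33208991-33233343), an SR-related protein that can oppose SR proteins, had 1.38, 1.39, 2.18 and 2.19 CPM in the sgBcl-2 MEFs. In the lymphoma lines it had 3 reads in all against 174 in the 4 MEF libraries, a ratio of 86.9 after correction for depth (exact 95% interval 29.3 to 426, counting error only). It was listed at 0 in both tumours, where 3 reads would correspond to 0.13 and 0.15 CPM, while preB-ALL had 0 and 0.08 CPM.

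Pairs of paralogues behaved less uniformly. Prpf38a and Prpf38b were both higher in the lymphoma lines, by 1.25 ± 0.09 and 1.57 ± 0.06 (SE) on the log2 scale. Lsm14a and Lsm14b encode proteins of processing bodies. Lsm14a lay at 97.5, 92.1, 96.1 and 98.8 CPM in the MEFs and at 157 to 224 CPM (median 180) in the lines, and was higher there (log2 fold change 0.78 ± 0.10, SE, limma, adjusted p = 2.88e-05). Lsm14b lay at 47.0, 47.9, 46.8 and 52.9 CPM and at 47.2 to 68.1 CPM (median 56.2), groups that overlapped, and its log2 fold change of 0.03 ± 0.12 (SE) changed sign under other scalings. Snrpb was higher in the lines by 1.56 ± 0.08 (SE), at 129 ± 7.55 CPM (SD, n = 4) in the MEFs and 432 ± 36.2 CPM (SD, n = 6) in the lines.

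**Figure D3:**
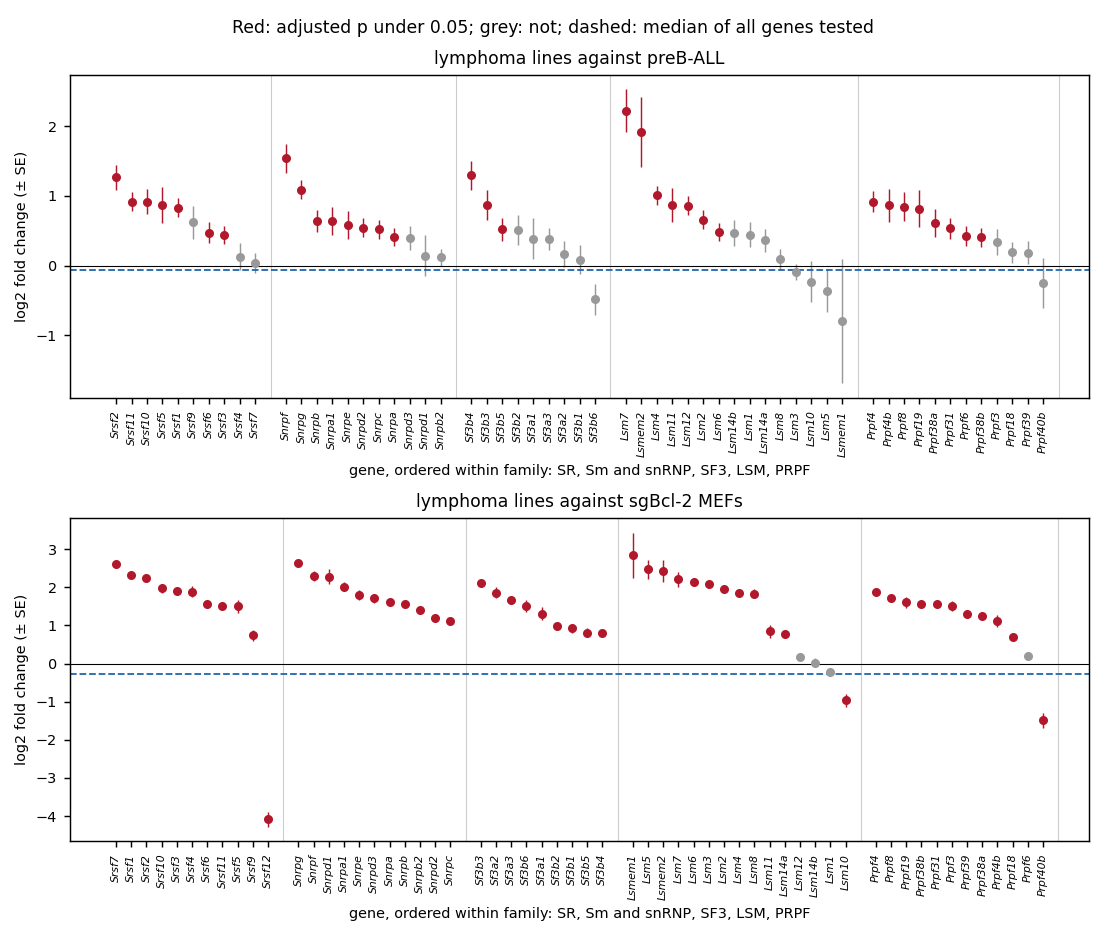
Log2 fold change (y axis) with its standard error for members tested, ordered by size within each family, in the lymphoma lines against preB-ALL (above, 57 genes) and against sgBcl-2 MEFs (below, 58 genes). Red points passed an adjusted p of 0.05, and the dashed line is the median of all genes tested, at -0.07 and -0.27.

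The lymphoma lines were also compared with preB-ALL, another malignancy of B lineage cells. The leukaemia RNA was extracted with a different kit and sequenced in another run, and the cells grown in another medium, and these differences cannot be told apart from the tumour type. Of the 58 members tested, 34 were higher in the lymphoma lines and 0 lower (limma, adjusted p under 0.05 over 13961 genes), while 43.4% of all genes were called, 20.9% higher and 22.5% lower. A further 6 members passed an unadjusted p of 0.05. The 34 higher members include Lsmem2, which shares only the prefix and lay at 0.58 CPM on average in preB-ALL. The median log2 fold change of the members was 0.52, against -0.07 for all genes. In this comparison, scaling raised every log2 difference by 0.36, and with the deposited CPM taken as they are, 12 members were higher and 2 lower (Lsm3 and Sf3b6), with a median of 0.16 for the members and -0.42 for all genes. The unscaled calls took in 43.6% of all genes, 12.1% higher and 31.5% lower. Mitochondrially encoded genes took 5.30% to 7.18% of the totals of the lymphoma lines and 0% of those of preB-ALL. With these genes left out of the totals and scaling kept, 30 members were called, all higher. Of all genes, 19.5% were then higher and 23.3% lower. Without preB-ALL 2, 17 members were called, all higher, as were 9.37% of all genes, with 12.8% lower. Leaving out 1 of 2 libraries in this or any other comparison leaves a single library, which is assumed to vary like the other group. The fibroblast transcripts in the preB-ALL libraries moved with this comparison, at 1769 and 3907 summed CPM against at most 35.0 CPM in the lines, and their part in it was not tested.

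In 4 of the families the member with the smallest adjusted p among those whose groups did not overlap was as follows. Srsf2 lay at 840 to 993 CPM (median 948) in the lines, against 568 and 438 CPM for preB-ALL (log2 fold change 1.27 ± 0.18, SE, limma, adjusted p = 0.00072). Snrpg lay at 65.3 to 80.1 CPM in the lines, against 43.8 and 45.9 CPM for preB-ALL (log2 fold change 1.09 ± 0.13, SE, limma, adjusted p = 0.00032). Neither gene reached the lowest lymphoma line in any leukaemia library. Sf3b4 (chr3:96172506-96177564), an SF3b subunit with 2 RNA recognition motifs, lay at 104 to 153 CPM (median 122) in the lines, against 77.1 and 53.8 CPM for preB-ALL (log2 fold change 1.30 ± 0.21, SE, limma, adjusted p = 0.0014). Lsm4 (chr8:70673231-70678752), a subunit of both LSM rings, lay at 137.9 to 185 CPM (median 160) in the lines, against 106 and 96.2 CPM for preB-ALL (log2 fold change 1.01 ± 0.13, SE, limma, adjusted p = 0.00051). These 4 genes were also called with the deposited CPM unscaled, and against each preB-ALL library alone, where the spread came from the lymphoma lines only.

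The called members numbered 7 of 10 tested SR genes, 8 of 11 Sm and snRNP genes, 3 of 9 SF3 genes, 7 of 15 LSM genes and 9 of 13 PRPF genes. All were higher in the lines, beside 20.9% of all genes, and the SF3 count was not far from that share. Lsm7, a further ring subunit, had the largest fold change at 2.22 ± 0.31 (SE), from 3.47 and 6.65 CPM in preB-ALL to 12.6 to 22.0 CPM in the lines, and Snrpf was next among the splicing genes at 1.54 ± 0.21 (SE). Both were picked out after their values were seen. Groups did not overlap after scaling for 39 members on the higher side and 1 on the lower (Lsm5), which held for 25.1% and 27.9% of all genes. Several abundant members did not pass the test. Srsf7 lay at 359 to 423 CPM in the lines, against 433 and 558 CPM for preB-ALL, with a log2 fold change of 0.04 ± 0.14 (SE) after scaling. Sf3b1 had a log2 fold change of 0.09 ± 0.20 (SE), and Sf3b6, the SF3b protein that contacts the branch point, one of -0.48 ± 0.23 (SE), at 84.3 to 136 CPM in the lines and 208 and 182 CPM in preB-ALL.

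Of the paralogue pairs, Snrpb (adjusted p = 0.012, limma), Prpf38a (adjusted p = 0.034, limma) and Prpf38b (adjusted p = 0.042, limma) were higher in the lymphoma lines than in preB-ALL, with log2 fold changes of 0.64 ± 0.16, 0.61 ± 0.20 and 0.40 ± 0.14 (SE). All 3 calls were lost with the deposited CPM left unscaled. That of Snrpb was also lost without preB-ALL 2, and those of Prpf38a and Prpf38b with RLE scaling, edgeR or DESeq2. Prpf38b further lost its call with limma-voom and with mitochondrially encoded genes left out of the totals. Leaving out preB-ALL 2 or any 1 lymphoma line except IgM-positive line 1 ended the call of Prpf38a, and leaving out preB-ALL 1 or any 1 lymphoma line that of Prpf38b. Lsm14a, Lsm14b and Prpf40b did not pass the test, with log2 fold changes of 0.37 ± 0.16, 0.47 ± 0.19 and -0.25 ± 0.36 (SE).

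The 2 primary tumours were compared with IgM-positive lines 1 and 2, which came from the mice with the same numbers. The labels give each tumour opposite mouse numbers in different fields, so the samples were not paired. No member was called, 0 of 58 (limma, adjusted p under 0.05 over 12719 genes, of which 0.33% were called, 0.267% higher and 0.0629% lower), and 6 had an unadjusted p under 0.05. DESeq2 called 4 lower, Lsm14a, Prpf8 and Prpf18 among them, and 16.5% of all genes, 8.34% lower, while edgeR called 0 members. With the mouse numbers of the titles as a block, 4 members were called lower and 1, Sf3b6, higher, beside 28.3% of all genes. On the log2 scale 38 members lay below 0 and 20 above, with a median of -0.14 against 0.01 for all genes. Groups did not overlap for 20 members on the lower and 10 on the higher side, which held for 28.4% and 29.2% of all genes.

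Prpf8 stood at 552 and 574 CPM in the tumours and at 983 and 947 CPM in the lines (log2 fold change -0.83 ± 0.17, SE, limma, adjusted p = 0.084). The tumours lay below all 6 lines, and with all 4 IgM-positive lines in the comparison Prpf8 was called lower in the tumours, 1 of 2 members, beside 10.9% of all genes. Lsm14a stood at 137 and 140 CPM against 224 and 222 CPM, and Prpf18, which acts in the second step of splicing, at 51.6 and 48.6 CPM against 71.1 and 76.2 CPM. Lsm4 lay on the other side, at 230 and 215 CPM in the tumours and at 141 and 185 CPM in the lines (log2 fold change 0.42 ± 0.17, SE, limma, adjusted p = 0.22), and above all 6 lines. These 4 genes were picked out after their values were seen. The 6 T cell markers summed to between 34.1 and 64.0 CPM in the tumours and 7.22 to 62.7 CPM in the IgM-positive lines, and the 8 myeloid markers to between 31.1 and 41.8 CPM against 5.61 to 13.2 CPM. The 9 B cell markers summed to 4480 and 4919 CPM in the tumours, against 1985 and 2322 CPM in lines 1 and 2. Among them Ms4a1 (CD20) stood at 529 and 799 CPM in the tumours and at no more than 7.46 CPM in any of the 6 lines. The part of these marker levels in the comparison was not tested.

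**Figure D4:**
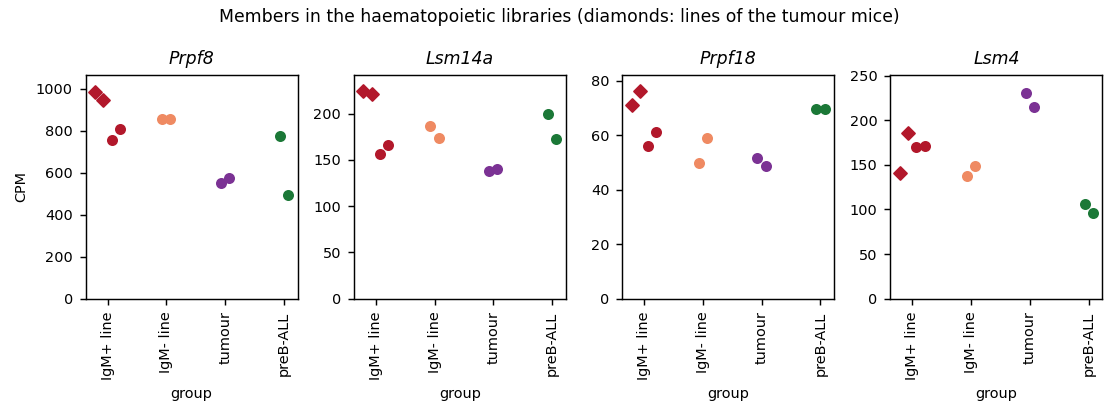
CPM (y axis, linear from 0) of Prpf8, Lsm14a, Prpf18 and Lsm4 in the lymphoma lines, tumours and preB-ALL libraries, with a point for each library and diamonds for the 2 lines from the mice of the tumours. Prpf8 lies between 754 and 983 CPM in all 6 lines, against 552 and 574 CPM in the tumours.

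Between the 2 IgM-negative and the 4 IgM-positive lines, 0 of 58 members were called by limma (adjusted p under 0.05 over 12386 genes, of which 0.646% were called, 0.0484% higher and 0.597% lower). Only 2 members, Lsm11 and Lsm14b, had an unadjusted p under 0.05, DESeq2 called Lsm11 alone, beside 6.05% of all genes, and edgeR 0 members. Lsm11 stood at 29.1 and 35.3 CPM in the IgM-negative lines and at 24.2, 24.0, 24.2 and 21.3 CPM in the IgM-positive lines, with no overlap. Groups did not overlap for 10 members on the higher side and 0 on the lower, against 10.8% and 12.7% of all genes. The median log2 fold change of the members was 0.06.

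Among the MEFs, the libraries without an sgRNA had the highest SR gene sums, at 1607 and 1623 CPM, against 1162 and 1096 CPM with sgNT and 1086 and 1270 CPM in WT MEFs. The sgNT MEFs differ from the no sgRNA MEFs by transduction with a lentiviral vector that carries a guide with no target, and the transduction, any selection for the vector and the guide cannot be told apart. Of 57 members tested, 26 were lower and 3 higher with sgNT (limma, adjusted p under 0.05 over 14655 genes), while 41.1% of all genes were called, 20.9% lower and 20.2% higher. These calls rest on the spread within each pair of libraries, which may be partly technical. The median log2 fold change of the members was -0.23, against 0.00 for all genes. Groups did not overlap for 41 members on the lower and 7 on the higher side, which held for 36.9% of all genes in each direction. Without no sgRNA MEF 1, 19 members and 27.2% of all genes were called, and without no sgRNA MEF 2, 16 members and 27.5%. With the MEF line as a block, 23 members and 36.7% of all genes were called.

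SR genes made up 7 of the 26 members that were lower, of 11 tested, beside 20.9% of all genes lower. Srsf2 stood at 274 and 273 CPM without an sgRNA and at 156 and 149 CPM with sgNT (log2 fold change -0.86 ± 0.06, SE, limma, adjusted p = 7.28e-05). Srsf7 stood at 99.2 and 95.9 CPM against 59.7 and 59.0 CPM (log2 fold change -0.73 ± 0.07, SE, limma, adjusted p = 0.00018). Srsf1 stood at 258 and 251 CPM against 160 and 158 CPM (log2 fold change -0.69 ± 0.06, SE, limma, adjusted p = 0.00020). In all 3 genes the libraries of a group lay close together and the groups far apart. Srsf3, a small SR protein that also acts in mRNA export, stood at 180 and 189 CPM against 128 and 117 CPM (log2 fold change -0.61 ± 0.07, SE, limma, adjusted p = 0.00045). Srsf5, Srsf10 and Srsf6 were lower as well, by -0.68 ± 0.08, -0.50 ± 0.07 and -0.40 ± 0.07 (SE) on the log2 scale. Srsf4, Srsf9, Srsf11 and Srsf12 did not pass the test, and Srsf11 stood at 137 and 137 CPM against 137 and 132 CPM.

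Outside the SR family, Lsm14b had the smallest adjusted p, at 63.6 and 62.4 CPM without an sgRNA and 40.8 and 38.8 CPM with sgNT (log2 fold change -0.68 ± 0.07, SE, limma, adjusted p = 0.00030). The called members were 3 lower of 11 tested for Sm and snRNP genes, 3 lower of 9 for SF3 genes, 7 lower and 1 higher of 13 for LSM genes, and 6 lower and 2 higher of 13 for PRPF genes. Of all genes tested, 20.9% were lower and 20.2% higher, and the Sm and snRNP and SF3 counts were not far from that share. The 3 higher members were Prpf40b, Prpf6 and Lsm10. Lsm10 lost its call with the MEF line as a block, with no filter on low values, with DESeq2 and with any 1 library left out. Prpf6 lost its call with either no sgRNA library left out, which leaves 1 in that group. Prpf40b stood at 17.3 and 15.5 CPM without an sgRNA and 27.2 and 27.4 CPM with sgNT, a log2 fold change of 0.72 ± 0.10 (SE). In the WT MEFs, Srsf1 stood at 155 and 118 CPM, Srsf2 at no more than 162 CPM and Srsf3 at 113 and 105 CPM, all below both libraries without an sgRNA. WT MEF 2 was far above WT MEF 1 for Srsf7 (115 against 57.5 CPM) and Srsf11 (206 against 97.6 CPM).

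**Figure D5:**
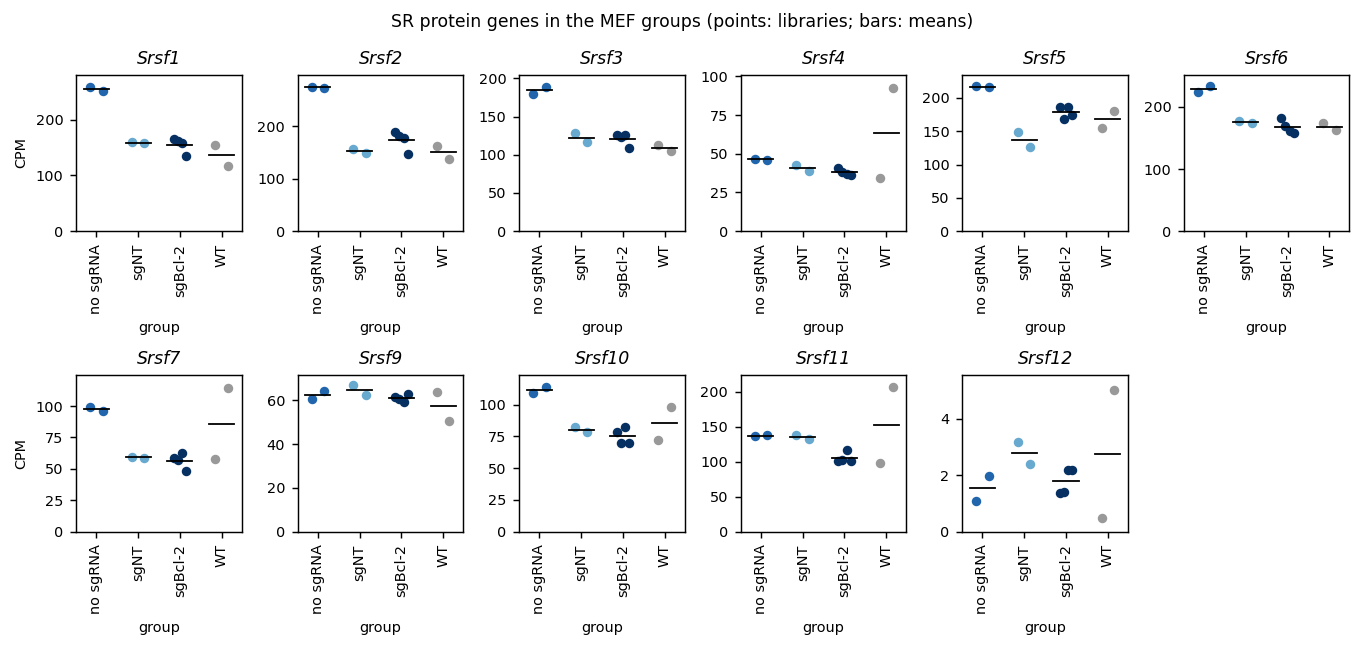
CPM (y axis, linear from 0, a scale for each gene) of the 11 SR genes in the 4 MEF groups, with a point for each library and a bar at the group mean. Both libraries without an sgRNA lie above all other MEF libraries for Srsf1, Srsf2, Srsf3, Srsf5, Srsf6 and Srsf10.

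Between sgBcl-2 and sgNT MEFs, which share the activator and differ in the guide, 4 of 57 members were called, 3 higher and 1 lower (limma, adjusted p under 0.05 over 14676 genes, of which 10.8% were called, 6.61% higher and 4.24% lower). Srsf5 stood at 186, 168, 187 and 175 CPM with sgBcl-2 and at 149 and 126 CPM with sgNT (log2 fold change 0.47 ± 0.08, SE, limma, adjusted p = 0.0094). Sf3b3 stood at 107, 120, 118 and 116 CPM against 97.7 and 93.8 CPM (log2 fold change 0.35 ± 0.07, SE, limma, adjusted p = 0.016). Lsm14b stood at 47.0, 47.9, 46.8 and 52.9 CPM against 40.8 and 38.8 CPM (log2 fold change 0.38 ± 0.08, SE, limma, adjusted p = 0.026). Srsf11 was the lower one, at 101, 102, 117 and 100 CPM against 137 and 132 CPM (log2 fold change -0.27 ± 0.07, SE, limma, adjusted p = 0.049). The call of Srsf11 was lost with RLE scaling, limma-voom, no filter on low values, and without sgBcl-2 MEF 1, 2 or 4 or either sgNT library. For each of these 4 genes the sgBcl-2 and sgNT libraries did not overlap. Groups did not overlap for 12 members on the higher and 6 on the lower side, against 20.8% and 20.5% of all genes. Against a single sgNT library the calls fell over all genes, to 1.04% without sgNT MEF 1, with Srsf5 the only member called, and to 1.32% without sgNT MEF 2, with 0 members. With the MEF line as a block, Prpf40b was called lower in addition to these 4, beside 14.6% of all genes. The median log2 fold change of the members was 0.01 and that of all genes -0.01.

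WT MEFs lack the activator and come from other embryos, and the study's methods describe transduction with the guide for the dCas9a-SAM MEFs. In sgNT against WT MEFs, the activator, the transduction and the guide therefore cannot be told apart. Here 0 of 57 members and 0% of 14560 genes were called by limma, and 0 members had an unadjusted p under 0.05, with DESeq2 and edgeR also calling 0 members. The WT group held the library that stood apart. Against a single WT library the spread came from the sgNT libraries only. Without WT MEF 2, 3 members were called higher with sgNT (Prpf40b, Srsf11 and Srsf12), beside 11.2% of all genes. Without WT MEF 1, 5 were called higher and 19 lower, beside 26.9% and 26.5% of all genes. With all 4 libraries, groups did not overlap for 25 members on the lower and 6 on the higher side, against 19.6% and 20.5% of all genes.

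Other genes of the splicing machinery were counted in lists drawn up by their known roles. Against sgBcl-2 MEFs, the lymphoma lines were higher for 23 of 24 genes of other snRNP proteins, 25 of 26 hnRNP genes, 15 of 17 genes of the Prp19 complex and the catalytic helicases, 13 of 14 regulators of SR proteins and 12 of 16 genes of Sm protein assembly and methylation, and lower for 0, 1, 0, 1 and 2 of them, beside 36.3% of all genes higher and 45% lower. In the last list the smallest adjusted p was that of Prmt5, the methyltransferase of the Sm proteins, at 244 CPM in the lines and 48.3 CPM in the MEFs on average (log2 fold change 2.16 ± 0.07, SE, limma, adjusted p = 5.66e-10). In the others it was that of Snrnp40 (2.35 ± 0.09), Hnrnpa2b1 (2.34 ± 0.07), Xab2 (1.56 ± 0.07) and Tra2b (2.14 ± 0.06), given as log2 fold changes with SE.

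Against preB-ALL, the lymphoma lines were higher for 12, 16, 6, 6 and 10 genes of these lists in the same order and lower for 0, 1, 1, 1 and 1, beside 20.9% of all genes higher and 22.5% lower. With the deposited CPM unscaled, an alternative for the lists chosen after seeing the data, 6, 10, 3, 3 and 6 were higher and 3, 1, 2, 4 and 2 lower, beside 12.1% and 31.5% of all genes. Ddx20, an RNA helicase of the SMN complex that loads the Sm ring, led the Sm assembly list at 89.9 CPM against 45.3 CPM on average (log2 fold change 1.35 ± 0.15, SE, limma, adjusted p = 0.00020). Usp39 (0.85 ± 0.13), Hnrnpf (2.37 ± 0.17), Bcas2 (1.04 ± 0.16) and Tra2b (0.88 ± 0.11) led the others, given as log2 fold changes with SE. In sgNT against no sgRNA MEFs, 20 of 26 hnRNP genes and 8 of 13 tested regulators of SR proteins were lower with sgNT and 0 higher, beside 20.9% of all genes lower and 20.2% higher, with Syncrip (-0.76 ± 0.06) and Tra2a (-0.52 ± 0.07) leading. The snRNP, Prp19 complex and Sm assembly lists had 6 of 24, 1 of 17 and 2 of 16 genes lower, near or below that share, and 1, 1 and 1 higher, led by U2af2 (-0.45 ± 0.06), Dhx15 (-0.27 ± 0.07) and Wdr77 (-0.66 ± 0.07). In sgBcl-2 against sgNT MEFs, Clk1, a kinase of SR proteins, was the 1 regulator called, at 33.0 CPM against 63.8 CPM on average (log2 fold change -0.87 ± 0.11, SE, limma, adjusted p = 0.0038), and 5 of 26 hnRNP genes were higher, beside 4.24% of all genes lower and 6.61% higher, led by Ptbp3 (0.52 ± 0.08). Of these lists, 0 genes were called in the tumour, IgM and WT comparisons.

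Promoters were read for 51 of the 60 members from RefSeq (GRCm38.p6), each with 250 bases before and 50 after a transcription start. Of the 4 windows shown, that start lies inside the outer bounds of the gene for Srsf1 and Prpf40b, and by a few bases for Sf3b3, so these windows describe 1 start and not the outermost. The E-box CACGTG, which MYC binds together with MAX and which reads the same on both strands, was present in 4 of 51 members (7.84%), Prpf3, Prpf39, Prpf40b and Snrpa, and in 8.09% of all 27025 genes with a promoter. The ETS-type motif CCGGAAG, searched on both strands (CTTCCGG on the other), was present in 19 of 51 members (37.3%) and in 9.93% of all genes. The palindromic motif known for ZBTB33, searched on both strands and named here without its letters, was present in 2 members (3.92%), Lsm14a and Srsf10, and in 0.525% of all genes. The members are all protein-coding, whereas the 27025 genes were not limited to protein-coding genes, so these shares come from unlike sets. A gene was counted if any of its promoters held the motif. A match is a run of letters and was not tested for binding.

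Promoters of 4 genes that carry the comparisons are shown, written 5′ to 3′ on the strand of the gene with motif letters in capitals. Snrpg and Sf3b3 had the smallest adjusted p of their families against the MEFs and each hold the ETS-type motif, Srsf1 had the smallest adjusted p of the SR genes there, though not the largest fold change, and holds none of these motifs, and Prpf40b was lower in the lymphoma lines and holds the E-box in 1 of its 2 promoters. They lie at chr6:86371290-86371589 (strand +), chr8:110846754-110847053 (strand -), chr11:88047123-88047422 (strand +) and chr15:99294991-99295290 (strand +) of GRCm38.p6.
Snrpg: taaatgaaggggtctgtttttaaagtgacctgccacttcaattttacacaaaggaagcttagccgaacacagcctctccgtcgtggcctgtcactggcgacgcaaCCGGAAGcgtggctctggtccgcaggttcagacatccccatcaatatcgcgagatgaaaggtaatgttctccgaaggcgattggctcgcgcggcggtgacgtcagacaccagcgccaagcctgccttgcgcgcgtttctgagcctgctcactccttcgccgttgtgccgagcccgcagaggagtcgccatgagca
Sf3b3: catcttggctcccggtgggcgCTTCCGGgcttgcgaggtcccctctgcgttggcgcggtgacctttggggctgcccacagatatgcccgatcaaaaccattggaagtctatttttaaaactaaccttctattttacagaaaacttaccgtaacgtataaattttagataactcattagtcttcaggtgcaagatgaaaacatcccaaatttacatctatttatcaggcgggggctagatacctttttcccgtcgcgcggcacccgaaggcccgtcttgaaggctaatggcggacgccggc
Srsf1: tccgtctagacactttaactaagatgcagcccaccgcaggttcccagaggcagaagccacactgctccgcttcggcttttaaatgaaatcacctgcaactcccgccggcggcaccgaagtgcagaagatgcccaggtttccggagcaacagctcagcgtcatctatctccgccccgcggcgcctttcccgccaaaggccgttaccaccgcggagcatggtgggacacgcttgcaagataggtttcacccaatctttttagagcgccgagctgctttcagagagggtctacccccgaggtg
Prpf40b: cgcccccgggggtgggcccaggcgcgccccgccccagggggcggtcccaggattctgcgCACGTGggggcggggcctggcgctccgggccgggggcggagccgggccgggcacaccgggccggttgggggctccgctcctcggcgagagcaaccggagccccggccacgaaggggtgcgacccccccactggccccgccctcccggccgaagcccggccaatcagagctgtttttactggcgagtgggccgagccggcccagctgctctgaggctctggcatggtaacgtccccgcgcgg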

How the data were processed

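RNA-seq libraries were prepared with the TruSeq RNA Library Prep Kit v2, and per the study's methods reads were aligned with Rsubread to GRCm38 (mm10). The authors deposited CPM, reads scaled to the library total, for 25869 Entrez identifiers in 20 libraries. Every value was a whole multiple of 1 read (tolerance 0.01), so reads were recovered. How strand and multiply mapped reads were handled is not given in the sources used here. Gene names and positions came from RefSeq (GRCm38.p6), which matched 25242 identifiers, 20958 of them protein-coding.

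CPM were scaled by TMM and compared as log2(CPM + 0.1), so that fold changes of low genes are understated, with limma 3.58.1 (lmFit, eBayes with trend, R 4.3.3) after filterByExpr, using only the libraries of the groups compared. P-values are two-sided and were adjusted by Benjamini-Hochberg over all genes tested, with a threshold of 0.05. Values per library are deposited CPM, whereas overlap between groups was judged after scaling. The 7 comparisons were repeated with other pseudocounts (0.5 and 1), filters, scalings, limma-voom, edgeR 4.0.16, DESeq2 1.42.0 and single libraries left out. Scripts were tested on simulated data.

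The members and lists were chosen with earlier results of these data known. Genes given in full were, in both comparisons of the lymphoma lines with preB-ALL and sgBcl-2 MEFs, the called member with the smallest adjusted p in each family and direction whose groups did not overlap, 3 pairs of paralogues, and Prpf40b. A further member is counted but not reported here. In the other comparisons every called member was given where there were at most 10, and elsewhere the 5 with the lowest adjusted p. The 3 highest and 3 lowest per kb and the leading gene of each related list were added. Other genes were named after their values were seen.

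The MEF libraries carry a line number in their titles, which for WT MEFs does not name a line of the other groups. Differences between lines correlated at 0.42 between sgNT and sgBcl-2 MEFs, 0.097 between sgNT and WT MEFs and -0.11 between sgNT and no sgRNA MEFs. The comparisons given first have no block, and the result with the line as a block stands beside those whose calls it changes.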

Additional observations from a re-analysis of the deposited data

Results flagged for a closer look

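In 6 of 78 groups of 4 to 6 libraries tested, 1 library lay far from the others by Dixon's criterion, which chance alone meets in about 1 of 20 groups. Prpf40b stood at 12.6 CPM in IgM-positive line 3, against 6.57 to 8.36 CPM in the other lymphoma lines. The SR genes summed to 4559 CPM in the same line, against 4864 to 4916 CPM in the other IgM-positive lines. In IgM-positive line 1, Prpf38a stood at 53.6 CPM, against 65.2 to 67.6 CPM in the other IgM-positive lines, and Lsm10 at 6.16 CPM, against 10.3 to 11.0 CPM. Srsf11 stood at 117 CPM in sgBcl-2 MEF 3, against 100.4 to 102 CPM in the other sgBcl-2 MEFs. Srsf3 stood at 109 CPM in sgBcl-2 MEF 4, against 124 to 126 CPM.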

How the results depend on the processing

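Against preB-ALL, the unscaled CPM gave 14 members called, 12 higher and 2 lower, with a median log2 fold change of 0.16. Without IgM-positive line 1, 31 members were called, beside 42.6% of all genes, 20.3% higher and 22.4% lower. Leaving out single libraries gave 17 (without preB-ALL 2) to 31 called, all higher, with medians of 0.37 to 0.56, and moved Prpf40b between -0.71 and 0.14, the latter without preB-ALL 1. Against sgBcl-2 MEFs, the median was 1.37 with RLE scaling and with DESeq2 and 1.74 unscaled, and Lsm14b turned to -0.17 with RLE scaling, -0.15 with DESeq2 and -0.018 to 0.083 with single libraries left out. DESeq2 called 1 member between IgM-negative and IgM-positive lines (6.05% of all genes) and 4 between tumours and lines (16.5%). For the tumours, a block by mouse number gave 5 (28.3%) and all 4 IgM-positive lines gave 2 (10.9%), with medians of -0.12 to -0.013 when a tumour was left out. In sgBcl-2 against sgNT MEFs, 3 (without sgBcl-2 MEF 1, 6.55% of all genes) to 5 members (without sgBcl-2 MEF 3, 10.4%) were called with an sgBcl-2 library left out. The unscaled median was -0.079. In sgNT against WT MEFs the range was 0 to 24 (without WT MEF 1, 53.4% of all genes). In sgNT against no sgRNA MEFs it was 16 (without no sgRNA MEF 2) to 24, with medians of -0.26 to -0.20 and an unscaled median of -0.22. In that comparison the share of all genes called also fell below its 41.1% with any 1 library left out. Where 1 of 2 libraries was left out, the spread came from the other group alone. The cause of these differences was not tested.

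With the MEF line number as a replicate block, 5, 0 and 23 members were called in sgBcl-2 against sgNT, sgNT against WT and sgNT against no sgRNA MEFs. The shares of all genes called were 14.6%, 0% and 36.7%. In sgNT against WT MEFs no line is shared, so there the block matches libraries by number only. Crossing the line numbers in sgNT against no sgRNA MEFs, an alternative chosen after seeing the data, gave 35, beside 45.6% of all genes. Of the alternatives for genes given in full, 507 kept direction and side of the threshold, 38 lost the call and 6 changed sign. Precision is limited by 2 libraries in most groups and by 12474885 reads in the shallowest.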
